A study of Arabidopsis thaliana with 9 samples.

Results

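The transcriptome of *pif4-2*, a single mutant allele of *PHYTOCHROME INTERACTING FACTOR4* (*PIF4*), was compared with that of its wild-type background Col-0 in *Arabidopsis thaliana* seedlings kept in red light. The comparison used 6 of the 9 RNA-seq libraries of the series, 3 labelled *pif4-2* and 3 labelled Col-0. All loci with a mean of at least 1 FPKM (fragments scaled to transcript length and library size) in either genotype entered it, which were 19035 of the 33602 loci in the files. The other 3 libraries came from the *bbx11-1* mutant and entered the test only through the estimate of replicate spread. Some of their values are also given below as a description. All seedlings were grown for 4 d in continuous red light of 94 μmol per square metre per second, and poly(A)-selected RNA of whole seedlings was sequenced from 3 biological replicates per genotype. The labels name the Col-0 libraries as the wild type for the *BBX11* mutant, no other wild type was used here, and whether *pif4-2* grew beside them is not stated. Only this allele was measured, so an effect of the *pif4-2* line and an effect of losing PIF4 cannot be told apart. In RNA of whole seedlings, fewer cells of a type and less RNA per cell cannot be told apart either.

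PIF4 is a basic helix-loop-helix (bHLH) transcription factor that promotes hypocotyl elongation, largely through auxin, brassinosteroid and cell wall genes. Red light converts the photoreceptor phytochrome B (phyB) to its active form, which binds PIF4 and leads to its phosphorylation and degradation. PIFs bind the G-box (CACGTG) and the related PBE-box (CATGTG) in the promoters of their target genes. WRKY factors, many of which respond to wounding and pathogens, bind the W-box (TTGACC or TTGACT), and the short element CGCGTT is found in promoters of genes that respond within minutes to wounding and other stress.

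Stretches of the promoters of 4 genes whose transcripts were lower in *pif4-2* are printed to show the letters that PIFs recognise in place. They are given 5′ to 3′ on the strand of the gene, from the RefSeq sequence of the TAIR10.1 build, each 120 bases long. Capitals mark each G-box or PBE-box on either strand, and letters of the other motifs stay in lower case. The 4 were picked from genes named below that hold a G-box or PBE-box in the 500 bases before the gene start. *HB52*, *PRE1* and *BBX31*, which also fell, hold neither there. *HFR1* encodes an atypical bHLH protein that dimerises with PIFs, *EXPA10* an expansin that loosens the cell wall, *PRR9* a repressor of the circadian clock, and *BBX30* a B-box microprotein.
*HFR1* promoter, chr1:468231-468350, minus strand: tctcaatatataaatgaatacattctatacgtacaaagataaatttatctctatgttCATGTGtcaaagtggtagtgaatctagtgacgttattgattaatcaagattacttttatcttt
*EXPA10* promoter, chr1:9259245-9259364, plus strand: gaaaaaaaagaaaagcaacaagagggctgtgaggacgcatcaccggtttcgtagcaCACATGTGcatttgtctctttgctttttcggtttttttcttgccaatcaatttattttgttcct
*PRR9* promoter, chr2:19232334-19232453, plus strand: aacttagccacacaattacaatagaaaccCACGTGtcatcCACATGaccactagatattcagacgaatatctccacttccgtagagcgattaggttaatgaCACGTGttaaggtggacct
*BBX30* promoter, chr4:8708712-8708831, plus strand: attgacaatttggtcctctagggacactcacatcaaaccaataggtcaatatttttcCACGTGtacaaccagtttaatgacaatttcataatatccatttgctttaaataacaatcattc
In *EXPA10* the capitals are a pair of PBE-boxes that overlap on opposite strands, and in *PRR9* they are a pair of G-boxes with a PBE-box between them.

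For 3 genes whose transcripts were higher in *pif4-2*, the capitals mark each W-box and each CGCGTT on either strand. These 3 were picked from genes named below that hold both motifs. *WRKY18*, *WRKY40* and *TCH3*, which also rose, hold neither in the 500 bases before the gene start. *PHI-1* belongs to the EXORDIUM family of cell wall proteins, *LOX4* encodes a lipoxygenase of jasmonate synthesis, and *XTH18* a xyloglucan endotransglucosylase/hydrolase that cuts and rejoins wall xyloglucan.
*PHI-1* promoter, chr1:12851785-12851904, plus strand: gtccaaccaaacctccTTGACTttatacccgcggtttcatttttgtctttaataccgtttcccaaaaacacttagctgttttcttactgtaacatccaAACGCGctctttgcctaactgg
*LOX4* promoter, chr1:27308044-27308163, plus strand: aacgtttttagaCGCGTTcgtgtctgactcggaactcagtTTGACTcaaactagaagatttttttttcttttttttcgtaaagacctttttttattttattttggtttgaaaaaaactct
*XTH18* promoter, chr4:14827239-14827358, minus strand: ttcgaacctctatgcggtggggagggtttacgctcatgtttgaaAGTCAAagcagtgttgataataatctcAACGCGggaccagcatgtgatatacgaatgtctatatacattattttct
The *XTH18* stretch also holds a CATGTG, which was left in lower case here.

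The spacing of low FPKM values put the Col-0 libraries at 15880000 to 17560000 reads and the *pif4-2* libraries at 18420000 to 21800000. The median standard deviation between replicates was 0.149 log2 units in Col-0 and 0.0888 in *pif4-2*. The Col-0 libraries were spread further on the first principal component, which took 46.1% of the variance, with Col-0 replicate 1 the farthest from *pif4-2*. Col-0 replicate 3 held *BBX11* at 78.2 FPKM, against 16.4 and 15.7 in the other Col-0 libraries and 15.7 to 17.0 in *pif4-2*. Summed markers of photosynthetic tissue overlapped between genotypes (4 genes, 33765 to 46751 FPKM in Col-0 and 38859 to 40899 in *pif4-2*), as did 13 seed reserve genes (34.6 to 60.4 and 24.9 to 49.2 FPKM). Summed root markers (11 genes) overlapped as well, at 98.0 to 124 FPKM in Col-0 and 87.8 to 98.8 in *pif4-2*. Summed guard cell markers (6 genes) were at 82.0 to 147 and 162 to 178, and summed trichome markers (5 genes) at 25.3 to 26.8 and 28.3 to 28.4. Of the guard cell sums, AT1G22690 alone held 34.1, 91.8 and 76.4 FPKM in Col-0 and 105, 113 and 121 FPKM in *pif4-2*. Of the 6 guard cell markers, 2 had a log2 fold change below 0. No marker of these 5 lists was at 0 in all 6 libraries. The part of tissue composition in the results below was not tested.

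The *pif4-2* seedlings had more rises than falls, and most changes were under 2-fold. In the limma test on log2(FPKM + 0.5), 554 loci (2.91% of those tested) were higher and 374 (1.96%) lower in *pif4-2* at a Benjamini-Hochberg adjusted p below 0.05. Of these, 150 (0.788%) were higher and 66 (0.347%) lower by at least 2-fold, so 404 rises and 308 falls were under 2-fold. The median log2 fold change was 0.72 among the rises, -0.59 among the falls and -0.02 over all tested loci. Without Col-0 replicate 1 the test called 451 higher and 313 lower, and without Col-0 replicate 3 it called 457 and 247. The total of 928 dropped by more than 1.5 times when a *pif4-2* library was left out, to 473 without replicate 1, 480 without replicate 2 and 508 without replicate 3. In all 6 fits that left out 1 library, 251 rises and 131 falls were called. Of the called loci, 184 rises and 97 falls belonged to at least 1 of the 72 gene lists used here, and some belonged to more than 1. Called genes from the lists and from the largest changes were named only where the genotypes did not overlap. In them a lack of overlap follows from this rule and is not added evidence. The plot of the lists shows which functions held the calls.

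**Figure D1:**
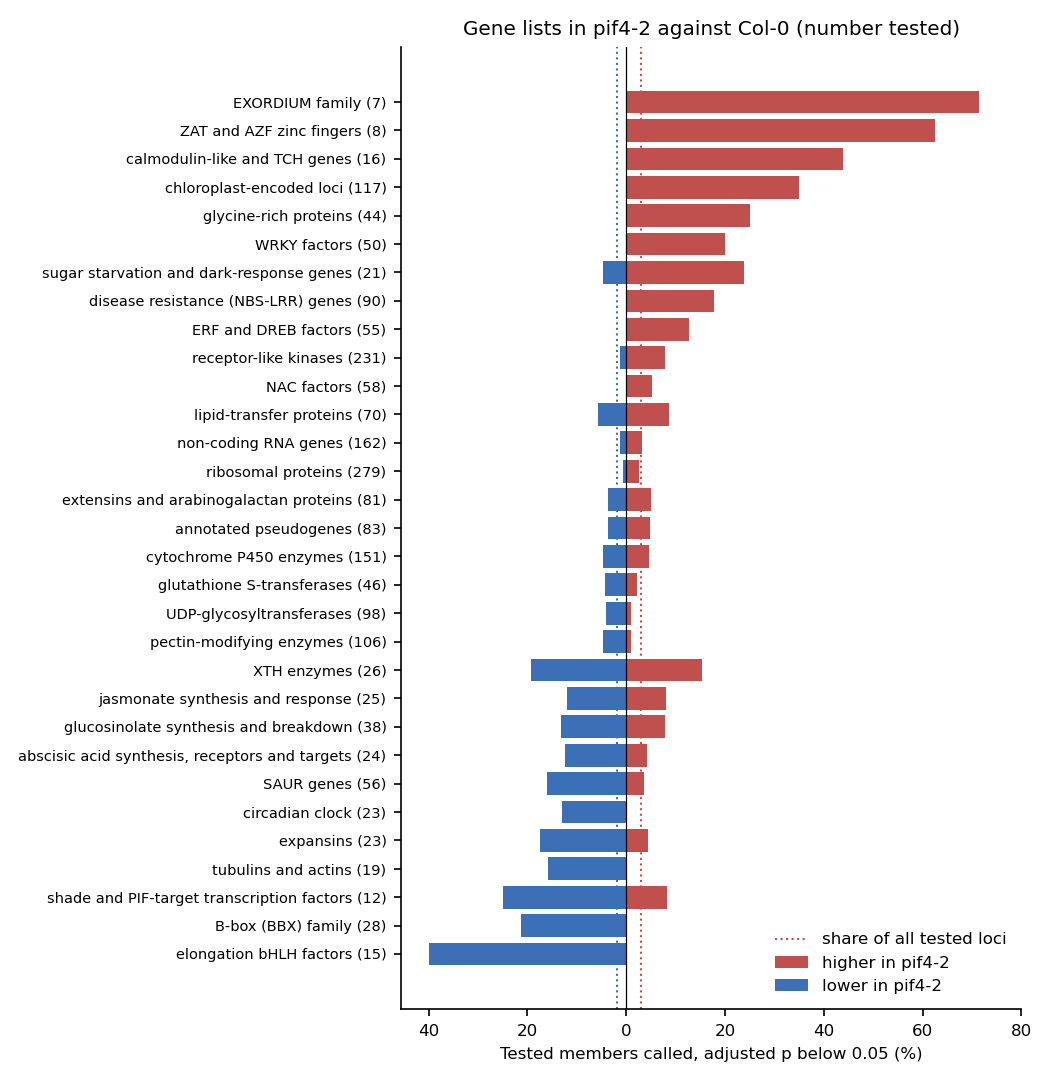
Share of the tested members of each gene list called higher (red, to the right) or lower (blue, to the left) in *pif4-2* against Col-0, for the lists with at least 3 calls, the number tested in brackets. Dotted lines mark the shares over all tested loci, 2.91% higher and 1.96% lower, and the highest shares are 71.4% higher in the EXORDIUM family and 40.0% lower among the elongation bHLH factors.

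*PIF4* transcript itself stood at 35.2, 30.2 and 25.7 FPKM in Col-0 and 16.9, 16.2 and 17.5 FPKM in *pif4-2*. Every *pif4-2* library was below every Col-0 library, and the log2 fold change was -0.82 ± 0.10 (SE, n = 3 per genotype, limma adjusted p = 0.00118). Of the 7 tested members of the PIF family, 1 other fell, *PIF1*, which represses seed germination and chlorophyll synthesis, from 17.3, 16.9 and 17.3 FPKM to 12.1, 12.7 and 12.8 FPKM (log2 fold change -0.44 ± 0.09, limma adjusted p = 0.0146). The *PIF1* call was lost without any 1 of the *pif4-2* replicates, at adjusted p values of at most 0.0751. None of the 10 phytochrome, cryptochrome and phototropin genes passed the test (median log2 fold change -0.08). Of 12 tested light signalling regulators only *HFR1* did.

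*HFR1* had the largest fall among the transcription factors named here, at 6.30, 7.42 and 7.60 FPKM in Col-0 and 2.42, 2.06 and 1.65 FPKM in *pif4-2*. The groups were well apart, with a log2 fold change of -1.59 ± 0.15 (limma adjusted p = 3.13e-04). *HB52*, a homeodomain-leucine zipper factor, fell from 10.6, 12.2 and 8.58 FPKM to 3.54, 3.45 and 3.00 FPKM, a log2 fold change of -1.51 ± 0.13 (limma adjusted p = 1.56e-04). The homeodomain gene *HAT1* went the other way, from 36.9, 39.2 and 37.6 FPKM to 54.0, 54.1 and 53.6 FPKM (0.50 ± 0.09, limma adjusted p = 0.00702). These 3 calls held in all 6 fits that left out a library. Across the 12 tested shade and PIF-target transcription factors, 3 fell and 1 rose, and the median log2 fold change was -0.26.

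The bHLH factors of cell elongation had the highest share of falls of any list with at least 10 tested members. Of 15 tested, 6 fell and none rose, and the median log2 fold change was -0.35. PRE proteins are helix-loop-helix factors without a DNA-binding region that promote elongation by binding inhibitory bHLH proteins. *PRE6* was at 14.9, 18.4 and 18.8 FPKM in Col-0 and at 7.32, 9.02 and 10.6 FPKM in *pif4-2* (log2 fold change -0.92 ± 0.13, limma adjusted p = 0.00287). *PRE1* was at 1.84, 3.15 and 3.59 FPKM in Col-0 and at 0.91, 0.92 and 1.09 FPKM in *pif4-2* (-1.15 ± 0.22, limma adjusted p = 0.0134). In both genes all *pif4-2* libraries lay below all Col-0 libraries. The *PRE6* call held in all 6 fits, and that of *PRE1* was lost without Col-0 replicate 3 or *pif4-2* replicate 1 or 2, at adjusted p values of at most 0.0581. AT1G09250, another bHLH gene of this list, was at 25.95, 28.6 and 24.9 FPKM in Col-0 and 16.7, 17.8 and 17.8 FPKM in *pif4-2*. Its log2 fold change was -0.59 ± 0.10 (limma adjusted p = 0.00790), and its call held in all 6 fits. *IBH1*, an inhibitor that PRE proteins bind, was at 7.87, 7.62 and 8.92 FPKM in Col-0 and 6.03, 7.58 and 7.51 FPKM in *pif4-2* (-0.20 ± 0.11, limma adjusted p = 0.418). The count of 6 fell to 2 without *pif4-2* replicate 1 and to 3 without *pif4-2* replicate 2 or 3 or Col-0 replicate 2 or 3.

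Of 28 tested B-box zinc finger genes, 6 were lower and none higher, 23 had a log2 fold change below 0, and the median was -0.24. *BBX30* and *BBX31* encode microproteins with a single B-box that bind CONSTANS. *BBX30* was at 5.15, 6.56 and 4.79 FPKM in Col-0 and 2.83, 1.70 and 2.73 FPKM in *pif4-2*, without overlap (-1.05 ± 0.19, limma adjusted p = 0.00915, called in all 6 fits). *BBX31* was at 12.4, 10.7 and 8.66 FPKM and 4.53, 5.12 and 6.51 FPKM (-0.91 ± 0.20, limma adjusted p = 0.0243). *BBX28*, which represses the activity of the light regulator HY5, was at 18.4, 25.9 and 19.3 FPKM and 14.0, 12.4 and 14.0 FPKM (-0.62 ± 0.13, limma adjusted p = 0.0182). The groups did not overlap in either gene, but *BBX31* lost its call in 4 of the 6 fits and *BBX28* in 3. The list count of 6 dropped to 1 without *pif4-2* replicate 1 or 2, to 3 without *pif4-2* replicate 3 or Col-0 replicate 2 and to 4 without Col-0 replicate 1. *BBX11* was not called (limma adjusted p = 0.504).

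Of 23 circadian clock genes 3 fell and none rose, with a median log2 fold change of -0.18. *PRR9* stood at 3.30, 2.24 and 1.69 FPKM in Col-0 and 0.82, 0.85 and 0.74 FPKM in *pif4-2*, where the libraries were close to each other and all below Col-0 (-1.12 ± 0.20, limma adjusted p = 0.00862). *PRR7*, its close relative, had a log2 fold change of -0.55 ± 0.11 (limma adjusted p = 0.0184) and *LNK1*, a clock coactivator, of -0.43 ± 0.11 (limma adjusted p = 0.0472). The *PRR9* call held in all 6 fits, *PRR7* lost its call in 4 and *LNK1* in 5. The count of 3 was 1 without Col-0 replicate 1 or *pif4-2* replicate 1 or 3.

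**Figure D2:**
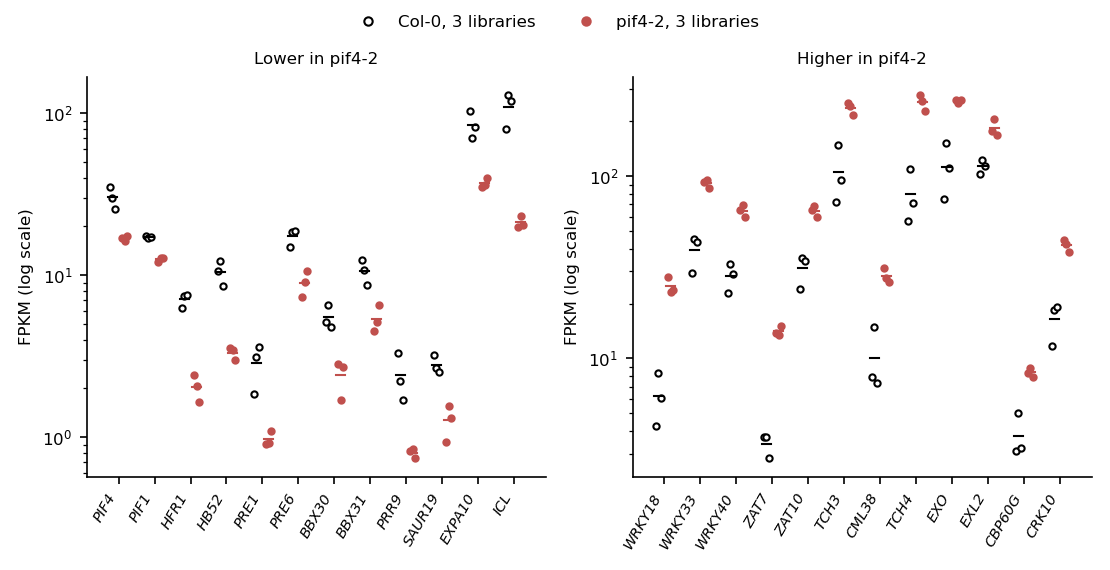
FPKM (log axis) of 12 genes lower and 12 genes higher in *pif4-2*, with 1 point per library (open, Col-0; filled red, *pif4-2*) and a bar at the mean of 3. All *pif4-2* points of a gene lie on the same side of its Col-0 points, for example 1.65 to 2.42 FPKM against 6.30 to 7.60 FPKM for *HFR1*. For genes picked from the lists and the largest changes, this was a condition of naming them.

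Few auxin genes outside the SAUR family passed the test. *IAA19*, *IAA29* and *YUC8*, auxin genes known to act downstream of PIF4, did not pass the test. *IAA19*, an auxin-induced repressor of auxin response, was at 3.64, 8.83 and 6.76 FPKM in Col-0 and 4.38, 4.82 and 3.75 FPKM in *pif4-2* (-0.45 ± 0.24, limma adjusted p = 0.410), and the groups overlapped. *IAA29* was at 1.37, 1.87 and 2.78 FPKM and 1.07, 1.06 and 0.45 FPKM (-0.88 ± 0.28, limma adjusted p = 0.117). *YUC8*, an enzyme of auxin synthesis, was at 1.44, 1.36 and 1.67 FPKM and 0.79, 1.07 and 0.70 FPKM (-0.56 ± 0.17, limma adjusted p = 0.102). For *IAA29* and *YUC8* every *pif4-2* library was below every Col-0 library, at levels near 1 FPKM. Of 22 Aux/IAA genes 1 fell, *IAA4* (-0.34 ± 0.07, limma adjusted p = 0.0140), which was not called without any 1 of the *pif4-2* replicates. None of 8 auxin synthesis, 15 auxin response factor, 7 GH3 and 18 auxin transport genes tested passed, with median log2 fold changes of -0.16, -0.04, 0.10 and 0.01.

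SAUR genes encode small auxin-induced proteins, many of which keep the plasma membrane proton pump active. Of 56 tested, 9 fell and 2 rose, against 1.96% and 2.91% of all loci, and the median log2 fold change was -0.19. Of the falls, 2 lay in the chromosome 4 run described below. *SAUR19* was at 3.24, 2.66 and 2.53 FPKM in Col-0 and 0.94, 1.56 and 1.32 FPKM in *pif4-2* (-0.91 ± 0.16, limma adjusted p = 0.00785). AT5G18030, of the same tandem cluster on chromosome 5, was at 9.11, 11 and 9.0 FPKM and 4.95, 4.64 and 4.64 FPKM (-0.96 ± 0.11, limma adjusted p = 5.91e-04). The groups were apart in both, and both calls held in all 6 fits. The 6 tested loci of that cluster, AT5G18010 to AT5G18060, had a median log2 fold change of -0.91, and 3 of them fell. Their sequences are near-identical, so reads may have been shared among them. The SAUR gene AT3G09870 rose from 0.22, 0.23 and 0.42 FPKM to 1.69, 1.58 and 1.35 FPKM (1.37 ± 0.21, limma adjusted p = 0.00392). The count of 9 falls was 6 without Col-0 replicate 1 or *pif4-2* replicate 1, and the 2 rises were 1 without Col-0 replicate 3 or *pif4-2* replicate 1 or 3 and 3 without Col-0 replicate 2.

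Cell wall enzymes split by gene. The expansins *EXPA10*, *EXPA1*, *EXPA3* and *EXPA11*, which loosen the wall during growth, were the 4 falls among 23 tested expansins. *EXPA10* was at 103, 70.1 and 82.0 FPKM in Col-0 and 35.2, 36.2 and 39.6 FPKM in *pif4-2* (-1.17 ± 0.13, limma adjusted p = 5.87e-04). *EXPA1* was at 160.2, 182 and 193 FPKM and 81.2, 91.3 and 94.1 FPKM (-1.0 ± 0.10, limma adjusted p = 3.94e-04). In these genes the *pif4-2* libraries were all below Col-0, as they were in *EXPA3* (-0.95 ± 0.10, limma adjusted p = 4.87e-04) and *EXPA11* (-0.92 ± 0.13, limma adjusted p = 0.00247). The 1 rise was *EXLA1*, an expansin-like gene, from 17.7, 21.8 and 20.7 FPKM to 52.2, 43.2 and 41.7 FPKM (1.17 ± 0.11, limma adjusted p = 2.93e-04). All 5 calls held in all 6 fits, and the median over the 23 expansins was -0.01.

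The XTH family had 4 rises and 5 falls among 26 tested members (median 0.10). *TCH4*, first known as a touch-induced gene, rose from 57.0, 110.2 and 71.5 FPKM to 279.9, 259 and 227 FPKM (1.72 ± 0.19, limma adjusted p = 4.71e-04). *XTH18* and *XTH24* rose by 0.81 ± 0.13 and 0.70 ± 0.10 on the log2 scale (limma adjusted p = 0.00489 and 0.00190), while *XTH19*, which lies beside them on chromosome 4, was at -0.62 ± 0.15 (limma adjusted p = 0.0365). *XTH8* fell from 38.7, 41.6 and 38.8 FPKM to 23.6, 23.3 and 24.3 FPKM (-0.73 ± 0.07, limma adjusted p = 3.92e-04), and *XTH31* had a log2 fold change of -0.62 ± 0.11 (limma adjusted p = 0.00742). Both falls held in all 6 fits. *XTH19* lost its call in 5, and the count of falls was 2 without Col-0 replicate 2 or 3 or any 1 of the *pif4-2* replicates. Of 106 pectin-modifying enzymes 5 fell and 1 rose, among the falls *ATPMEPCRD* (AT2G43050), annotated as a pectin methylesterase inhibitor family member and 16.3 kb from *PIF4* (-1.18 ± 0.11, limma adjusted p = 2.92e-04). Of 19 tubulin and actin genes 3 fell, all tubulins, of which *TUA2* held in all 6 fits (-0.41 ± 0.07, limma adjusted p = 0.00514) and was the 1 call left without Col-0 replicate 2 or 3 or any 1 of the *pif4-2* replicates.

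*ICL*, isocitrate lyase of the glyoxylate cycle, which turns stored lipid into sugar in germinating seedlings, was at 79.9, 129.7 and 119 FPKM in Col-0 and 19.9, 23.3 and 20.4 FPKM in *pif4-2*. Its groups were far apart, with a log2 fold change of -2.31 ± 0.23 (limma adjusted p = 3.85e-04). *MLS*, malate synthase of the same cycle, named after its value was seen, was at 10.8, 20.5 and 17.6 FPKM and 5.63, 8.14 and 6.35 FPKM (-1.19 ± 0.25, limma adjusted p = 0.0213), and its call was lost in 4 of the 6 fits. Seed reserve transcripts did not pass the test (0 of 6 tested, median -0.51), with *CRA1*, the cruciferin gene, at 17.4, 29.1 and 35.02 FPKM and 18.4, 23.9 and 14.97 FPKM. *LTP2*, a lipid-transfer protein of the epidermal surface, fell from 254, 444 and 328 FPKM to 123, 154 and 168 FPKM (-1.17 ± 0.20, limma adjusted p = 0.00702). *FAR1*, a fatty acid reductase that makes the fatty alcohols of suberin, was at 14.1, 45.7 and 28.7 FPKM and 8.45, 9.45 and 10.9 FPKM (-1.42 ± 0.35, limma adjusted p = 0.0421) and lost its call in 5 fits. It was the 1 fall among 49 tested wax, cutin and fatty acid elongation genes (median 0.08). The share of falls was 2.04%, against 1.96% of all tested loci, and the share of rises 2.04%, against 2.91%. The 1 rise of that list was *GPAT3*, an acyltransferase gene, from 19.8, 36.2 and 34.9 FPKM to 62.7, 66.1 and 64.8 FPKM (1.13 ± 0.24, limma adjusted p = 0.0202), which was not called without any 1 of the *pif4-2* replicates. Over all 70 tested lipid-transfer protein genes, 6 rose and 4 fell, the latter all by at least 2-fold. Without *pif4-2* replicate 1 or 3 there was 1 fall and without *pif4-2* replicate 2 there were 2, and the rises were 2 without Col-0 replicate 1 or any 1 of the *pif4-2* replicates.

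*RD29A*, a classic target of drought and abscisic acid, was at 27.9, 26.4 and 26.1 FPKM in Col-0 and 12.96, 14.7 and 12.5 FPKM in *pif4-2* (-0.98 ± 0.08, limma adjusted p = 1.43e-04). *ABI1*, a phosphatase of abscisic acid signalling, had a log2 fold change of -0.55 ± 0.09 (limma adjusted p = 0.00580). *CYP707A3*, which breaks abscisic acid down, rose from 5.50, 7.77 and 6.76 FPKM to 15.7, 14.6 and 16.3 FPKM (1.17 ± 0.12, limma adjusted p = 4.04e-04). These 3 calls held in all 6 fits, and over the 24 tested abscisic acid genes 3 fell and 1 rose (median -0.18). *PAD3*, the last enzyme of camalexin synthesis, was at 8.02, 6.49 and 4.99 FPKM and 2.72, 2.75 and 2.68 FPKM (-1.1 ± 0.20, limma adjusted p = 0.00946). *ST2A*, a sulfotransferase that inactivates a jasmonate, was at 4.90, 3.84 and 4.51 FPKM and 1.34, 1.36 and 1.64 FPKM (-1.33 ± 0.13, limma adjusted p = 3.06e-04). *DIN11*, a dark-induced oxygenase gene, was at 6.0, 4.68 and 3.14 FPKM and 0.94, 1.3 and 1.1 FPKM (-1.63 ± 0.25, limma adjusted p = 0.00392). In each of these 3 genes every *pif4-2* library lay below every Col-0 library. *DIN11* was the 1 fall among 21 tested sugar starvation and dark-response genes, of which 5 rose (median 0.20), among them the trehalose-phosphate synthase family gene *TPS8* (0.43 ± 0.07, limma adjusted p = 0.00391, called in all 6 fits) and *DIN10* (0.49 ± 0.11, limma adjusted p = 0.0280, lost in 5). The 5 rises were 2 without Col-0 replicate 1 or *pif4-2* replicate 1 or 2 and 3 in the other fits. The glycosyltransferase gene AT5G37950 was at 2.37, 1.80 and 1.77 FPKM in Col-0 and was listed at 0 in all 3 *pif4-2* libraries.

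WRKY genes had 10 rises and no fall among 50 tested, with a median log2 fold change of 0.08, and the other 40 did not pass the test. *WRKY18* was at 4.26, 8.36 and 6.03 FPKM in Col-0 and 27.9, 23.2 and 23.6 FPKM in *pif4-2* (1.96 ± 0.20, limma adjusted p = 3.85e-04). *WRKY33*, needed for resistance to fungi, was at 29.3, 45.4 and 43.4 FPKM and 92.6, 95.5 and 86.1 FPKM (1.23 ± 0.15, limma adjusted p = 0.00111). *WRKY40*, a partner of *WRKY18*, was at 22.8, 33.2 and 29.1 FPKM and 65.6, 69.3 and 59.7 FPKM (1.2 ± 0.15, limma adjusted p = 9.15e-04). In all 3 the lowest *pif4-2* library was above the highest Col-0 library. *WRKY70*, a salicylic acid-responsive member, rose by 1.17 ± 0.18 on the log2 scale (limma adjusted p = 0.00400). These 4 calls held in all 6 fits, and the count of 10 was 5 without *pif4-2* replicate 2.

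The ZAT and AZF zinc finger genes, which encode stress-induced repressors, had 5 rises among 8 tested, and all 8 had a log2 fold change above 0 (median 0.82). *ZAT7* was at 3.71, 3.69 and 2.82 FPKM in Col-0 and 13.8, 13.4 and 15.1 FPKM in *pif4-2* (1.91 ± 0.14, limma adjusted p = 7.70e-05). *ZAT12* was at 14.4, 13.9 and 15.4 FPKM and 33.1, 33.8 and 30.8 FPKM (1.14 ± 0.08, limma adjusted p = 7.70e-05). *ZAT10* was at 23.98, 35.7 and 34.1 FPKM and 65.5, 69.1 and 60.1 FPKM (1.06 ± 0.14, limma adjusted p = 0.00147). The genotypes were apart in all 3 genes and the calls held in all 6 fits, while the list count was 3 without *pif4-2* replicate 1 or 2. ERF and DREB factors had 7 rises among 55 tested (median 0.04), and this count was 3 without *pif4-2* replicate 1 or 2 and 4 without *pif4-2* replicate 3 or Col-0 replicate 3. NAC factors had 3 rises among 58 (5.17%, against 2.91% of all tested loci). Of these *NAC062*, a membrane-bound stress factor, held in all 6 fits (0.85 ± 0.14, limma adjusted p = 0.00514).

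Of 16 calmodulin-like and TCH genes tested 7 rose and none fell, with a median of 0.09, and 7 had a log2 fold change below 0. *TCH3*, a calmodulin-like gene induced by touch, was at 72.5, 148 and 95.8 FPKM in Col-0 and 252, 244 and 218 FPKM in *pif4-2* (1.23 ± 0.19, limma adjusted p = 0.00400). *TCH2* was at 36.7, 68.4 and 49.6 FPKM and 94.3, 97.4 and 94.6 FPKM (0.93 ± 0.17, limma adjusted p = 0.00920). *CML38*, another calmodulin-like gene, was at 7.90, 14.9 and 7.37 FPKM and 31.2, 27.7 and 26.3 FPKM (1.52 ± 0.22, limma adjusted p = 0.00287). Col-0 replicate 2 was the highest of the Col-0 libraries in each of these genes and still below every *pif4-2* library. EXORDIUM genes had 5 rises among 7 tested (median 0.69), and the count was 5 in each of the 6 fits. *EXO*, a brassinosteroid-responsive promoter of growth, was at 75.5, 152 and 112 FPKM and 262, 251 and 264 FPKM (1.25 ± 0.20, limma adjusted p = 0.00400). *EXL2* was at 103, 123 and 114 FPKM and 178, 207 and 168 FPKM (0.69 ± 0.09, limma adjusted p = 0.00172).

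Of 90 tested disease resistance genes with nucleotide-binding and leucine-rich repeat domains, 16 rose, 9 of them by at least 2-fold, none fell, and 71 had a log2 fold change above 0 (median 0.15). AT1G66090 was at 3.1, 5.86 and 4.65 FPKM in Col-0 and 15.3, 14.0 and 15.1 FPKM in *pif4-2* (1.64 ± 0.17, limma adjusted p = 4.33e-04). AT1G63860 was at 1.86, 2.68 and 2.42 FPKM and 7.39, 7.60 and 6.21 FPKM (1.43 ± 0.14, limma adjusted p = 3.56e-04). Both had groups far apart, and the list count stayed between 12 and 15 in the 6 fits. Receptor-like kinases had 18 rises, 4 of them by at least 2-fold, and 3 falls among 231 tested (median 0.01), with *CRK10* from 11.8, 18.5 and 19.2 FPKM to 44.7, 42.6 and 38.3 FPKM (1.35 ± 0.16, limma adjusted p = 7.36e-04). *SOBIR1*, the adaptor kinase of receptor-like proteins, rose by 1.1 ± 0.17 on the log2 scale (limma adjusted p = 0.00369). The kinase count was 8 without *pif4-2* replicate 1 and 9 without *pif4-2* replicate 2, and the 3 falls were 0 without *pif4-2* replicate 1 or 2 or Col-0 replicate 3 and 1 without *pif4-2* replicate 3. Members of both families can share reads with close paralogs.

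*CBP60G*, a calmodulin-binding activator of salicylic acid synthesis, was at 3.1, 4.99 and 3.21 FPKM in Col-0 and 8.35, 8.88 and 7.95 FPKM in *pif4-2* (1.09 ± 0.17, limma adjusted p = 0.00353), and it was the 1 rise among 11 salicylic acid genes. *LOX4* was at 1.72, 3.12 and 3.02 FPKM and 10.6, 11.8 and 11.2 FPKM (1.94 ± 0.18, limma adjusted p = 2.92e-04). *ACS11*, an enzyme of ethylene synthesis, was at 1.75, 3.96 and 2.96 FPKM and 7.60, 6.68 and 8.38 FPKM (1.3 ± 0.21, limma adjusted p = 0.00490). All *pif4-2* libraries exceeded all Col-0 libraries in the 3 genes, and the calls held in all 6 fits. Over the 25 tested jasmonate synthesis and response genes, which include *LOX4*, 2 rose and 3 fell (median -0.03). The 2 rises were 1 without *pif4-2* replicate 2 or 3. Among the falls *NATA1* went from 16.3, 4.86 and 4.53 FPKM to 0.16, 0 and 0 FPKM (-3.81 ± 0.55, limma adjusted p = 0.00260). Glucosinolate genes, which make and break the mustard oil precursors, had 3 rises and 5 falls among 38 tested (median -0.18). *CYP81F2*, which modifies indole glucosinolates, rose from 4.31, 7.33 and 6.01 FPKM to 24.3, 23.0 and 22.2 FPKM (1.92 ± 0.17, limma adjusted p = 2.54e-04), the regulator *MYB51* by 0.92 ± 0.12 (limma adjusted p = 0.00156) and the myrosinase *TGG2* by 1.38 ± 0.19 on the log2 scale (limma adjusted p = 0.00178). On the falling side the sulfotransferase *SOT18* was at -0.46 ± 0.08 (limma adjusted p = 0.00748) and the regulator *MYB34* at -0.60 ± 0.13 (limma adjusted p = 0.0241). The aliphatic pathway enzyme *CYP83A1* was at -0.50 ± 0.10 (limma adjusted p = 0.0163). *MYB34* lost its call in 4 of the 6 fits and *CYP83A1* in 3. The 3 rises held in all 6 fits and the 5 falls were 1, 2 and 3 without *pif4-2* replicates 1, 2 and 3 and 2 without Col-0 replicate 3.

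Glycine-rich protein genes had 11 rises among 44 tested, 7 of them by at least 2-fold, and a median of 0.31. AT3G04640 was at 5.52, 8.55 and 6.05 FPKM in Col-0 and 23.1, 27.8 and 21.1 FPKM in *pif4-2* (1.78 ± 0.21, limma adjusted p = 7.62e-04), without overlap. AT5G28630 was at 0.67, 1.19 and 1.00 FPKM and 4.80, 5.06 and 5.81 FPKM (1.99 ± 0.25, limma adjusted p = 0.00101). The count of 11 was 6 without Col-0 replicate 2 or *pif4-2* replicate 3 and 7 without *pif4-2* replicate 1 or 2. The uncharacterized gene AT5G15360 was near the floor in Col-0, at 0.46, 0.65 and 0.44 FPKM, and at 5.16, 6.26 and 6.66 FPKM in *pif4-2* (2.68 ± 0.18, limma adjusted p = 5.60e-05). It was at -0.42 in *bbx11-1* against the same Col-0 libraries, where AT3G04640 was at 1.18 and AT5G28630 at 0.59.

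The *bbx11-1* libraries share their Col-0 controls with this comparison, so their values are set beside those of *pif4-2* only as a description. Among the rises, the log2 fold change in *bbx11-1* was 1.15 for *WRKY18*, 0.92 for *WRKY33*, 1.08 for *WRKY40* and 0.04 for *WRKY70*. It was 1.2 for *ZAT7*, 0.55 for *TCH3*, 0.81 for *TCH4*, 0.66 for *CRK10*, 0.91 for *LOX4*, 0.63 for *CYP81F2* and 0.10 for *TGG2*. Among the falls it was 0.23 for *HFR1*, -0.07 for *HB52*, 0.01 for *PRE6*, -0.75 for *PRE1*, -0.16 for *BBX30*, -0.17 for *PRR9*, -0.49 for *EXPA10*, -0.21 for *EXPA1*, 0.24 for *RD29A* and -0.18 for *ICL*.

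Transcripts encoded in the chloroplast formed the largest rising group by number. Of 117 tested loci 41 rose, 13 by at least 2-fold, none fell, and 109 had a log2 fold change above 0, with a median of 0.66. ATCG00110 was at 18.0, 12.8 and 9.34 FPKM in Col-0 and 32.5, 29.7 and 36.2 FPKM in *pif4-2* (1.3 ± 0.21, limma adjusted p = 0.00514), and ATCG00560 at 39.8, 33.2 and 36.9 FPKM and 80.8, 75.6 and 113 FPKM (1.27 ± 0.16, limma adjusted p = 0.00136). The chloroplast loci summed to 4.70%, 3.65% and 3.36% of all FPKM in the Col-0 libraries and to 5.10%, 5.33% and 6.20% in *pif4-2*. The shares did not overlap, but those of *bbx11-1*, at 5.83%, 3.87% and 3.75%, overlapped both. The count of 41 depended on the libraries used, with 51 without Col-0 replicate 1, 23 without Col-0 replicate 2, 22 without Col-0 replicate 3 and 21, 22 and 17 without *pif4-2* replicates 1, 2 and 3. Messenger RNA was selected by its poly(A) tail, which chloroplast transcripts mostly lack, and the part of that selection was not tested. Mitochondrial loci had 1 rise among 24 (median 0.38), which became 4 without Col-0 replicate 1 and 0 without any other library.

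**Figure D3:**
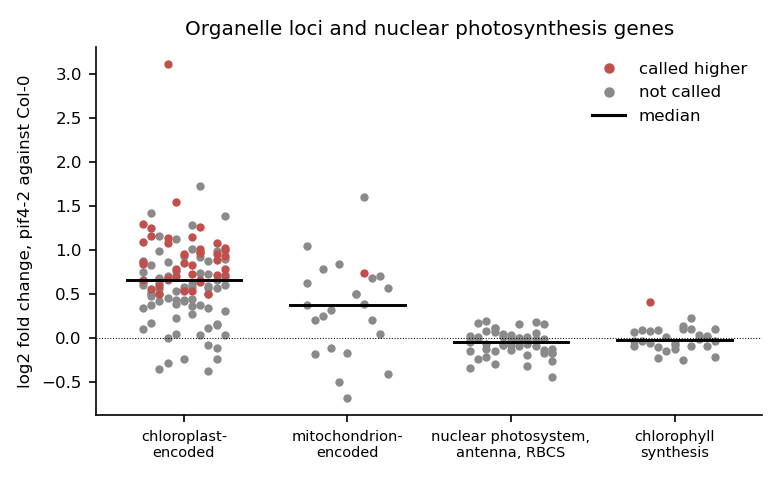
Log2 fold change, *pif4-2* against Col-0, of each tested locus in 4 groups, with called rises in red, uncalled loci in grey and a bar at the median. Chloroplast-encoded loci sit mostly above 0 with a median of 0.66, whereas the nuclear photosystem, antenna and RBCS genes lie between -0.44 and 0.20 with none called.

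None of the 50 nuclear photosystem, antenna and RBCS genes passed the test, and their median log2 fold change was -0.04. *CAB1*, a chlorophyll-binding antenna protein, was at 18088, 15638 and 11296 FPKM in Col-0 and 14707, 15281 and 14022 FPKM in *pif4-2* (-0.01 ± 0.17, limma adjusted p = 0.992), with the *pif4-2* values inside the range of Col-0. Chlorophyll and tetrapyrrole genes had 1 rise among 30 (3.33%, against 2.91% of all tested loci), the ferrochelatase *FC1*, which lost its call in 4 of the 6 fits. Carotenoid genes had none among 12. Short transcripts held a larger share of rises than long ones: 27 of 331 loci with transcripts of up to 600 bases rose (8.16%), against 3.26% of those between 600 and 1200 bases and 2.43% of longer ones. Among 279 ribosomal protein genes 7 rose (2.51%, against 2.91% of all tested loci). They included AT1G56045 and AT3G11120 of the very short L41 family (1.05 ± 0.15 and 1.01 ± 0.16, limma adjusted p = 0.00240 and 0.00387). The count of 7 was 3 without Col-0 replicate 3 or *pif4-2* replicate 2 or 3. The 2 ribosomal falls both lay in the chromosome 4 run.

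A run of neighbouring genes on chromosome 4, found after the values were seen, was lower as a block. From AT4G34450 to AT4G34881 (TAIR10.1, chr4:16470736-16618573, 148 kb), 36 of 37 tested loci had a log2 fold change below 0 and 27 were called lower. Their median was -0.55, a ratio to Col-0 of 0.685, and the quartiles were -0.64 and -0.45. The 25 tested loci before the run had a median of -0.01 and the 25 after it of -0.05, and on the other 4 chromosomes no window of 25 loci had a median below -0.20. Genes of unrelated function took part. *AGB1*, the beta subunit of the heterotrimeric G protein, was at 51.2, 44.3 and 44.9 FPKM in Col-0 and 35.2, 34.6 and 31.1 FPKM in *pif4-2* (-0.47 ± 0.09, limma adjusted p = 0.00973), and lost its call without *pif4-2* replicate 3 (adjusted p = 0.0555). *SQS1*, squalene synthase of sterol synthesis, was at 75.3, 64.6 and 63.2 FPKM and 45.4, 43.0 and 43.3 FPKM (-0.61 ± 0.08, limma adjusted p = 0.00125). The exception was *KCS17*, at 1.60, 0.80 and 1.66 FPKM and 1.37, 1.53 and 1.3 FPKM (0.07 ± 0.24, limma adjusted p = 0.930).

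The same loci were lower in *bbx11-1* against the same 3 Col-0 libraries, with a median of -0.52 and 37 of 37 below 0. Taken library by library against the Col-0 mean, the median over the run was -0.53, -0.57 and -0.57 in *pif4-2*, -0.49, -0.58 and -0.52 in *bbx11-1* and 0.13, -0.06 and -0.02 in Col-0. Since both mutants share the Col-0 libraries, a run that is high in these Col-0 plants and a run that is low in both mutants cannot be told apart. Without these loci 554 rises and 347 falls remained. Around *PIF4* itself, 2 of the 20 nearest tested neighbours were called and their median was -0.02.

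**Figure D4:**
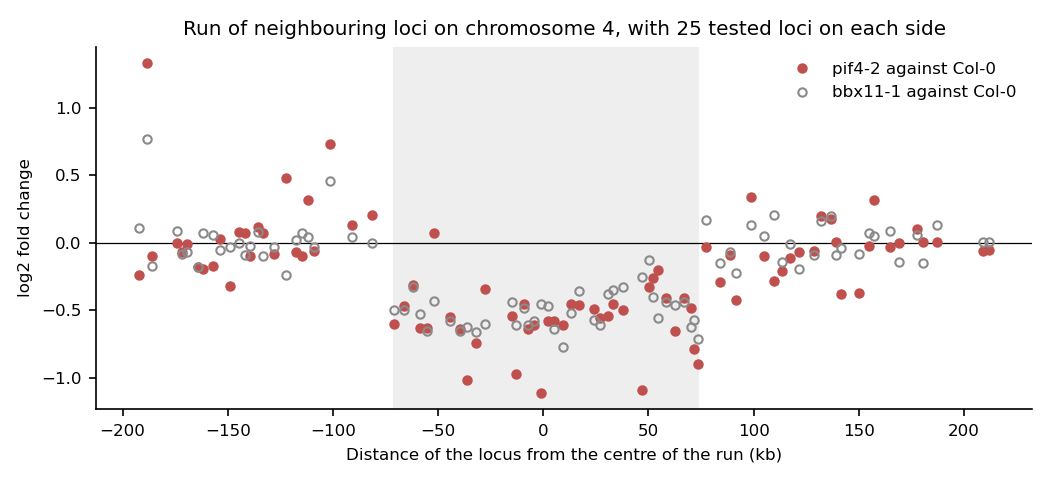
Log2 fold change against Col-0 of each tested locus in and beside the run on chromosome 4, by its distance in kb from the centre of the run, for *pif4-2* (filled red) and *bbx11-1* (open grey), with the run shaded. Inside the run the medians are -0.55 and -0.52, and the 25 loci on each side scatter around 0.

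Many functions showed no call. None of 39 heat shock, 29 iron uptake, 28 phenylpropanoid and flavonoid, 38 starch and sucrose, 20 nitrate, 13 ethylene signalling, 11 gibberellin signalling and 9 type-A response regulator genes passed the test, and their medians lay between -0.20 and 0.11. *HSC70-1*, the most abundant heat shock protein gene of its list, was at 1195, 998 and 983 FPKM in Col-0 and 990, 1015 and 1023 FPKM in *pif4-2* (-0.06 ± 0.09, limma adjusted p = 0.820). *NIA2*, nitrate reductase, was at 752, 755 and 803 FPKM and 927, 924 and 900 FPKM (0.25 ± 0.07, limma adjusted p = 0.0751), apart but not called. Histone genes had 1 rise among 39 (2.56%, against 2.91% of all tested loci). Cyclin and CDK genes had 1 fall among 41 (2.44%, against 1.96%). A list with no call is not shown to be unchanged.

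Promoter letters differed between the rises and the falls. In the 500 bases before the gene start, the W-box was found in 44.4% of 18437 tested nuclear genes with a window, in 58.8% of 500 higher genes and in 42.0% of 362 lower genes. CGCGTT was found in 4.80% of all genes, 14.0% of higher genes and 3.87% of lower genes. The PBE-box was in 21.0% of all, 19.4% of higher and 29.3% of lower genes, and in 30.7% of the 335 lower genes outside the chromosome 4 run. The G-box was in 10.4%, 9.20% and 12.7%. Among genes changed by at least 2-fold, the W-box was in 70.5% of 129 higher genes and the PBE-box in 33.3% of 60 lower genes. A match of letters is a description and not a bound site, and genes called here share libraries, so no test was made of these shares.

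**Figure D5:**
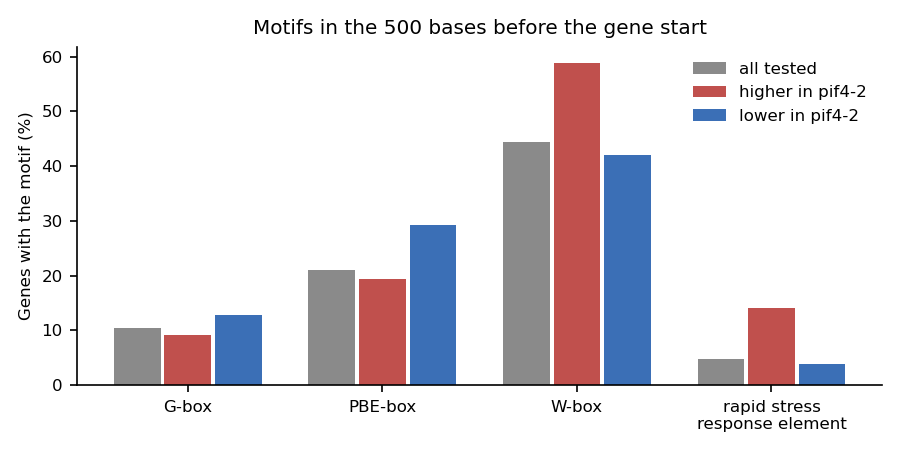
Percent of genes with each motif on either strand in the 500 bases before the gene start, for all tested nuclear genes (grey), genes higher in *pif4-2* (red) and genes lower in *pif4-2* (blue). The W-box and the rapid stress response element (CGCGTT) are found in 58.8% and 14.0% of the higher genes against 44.4% and 4.80% of all genes, and the PBE-box in 29.3% of the lower genes against 21.0%.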

How the data were processed

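RNA-seq was measured in 3 Col-0, 3 *pif4-2* and 3 *bbx11-1* libraries. The submitters' processing notes name HISAT2, the TAIR10 build and edgeR 3.0.8. The authors deposited 1 FPKM value per locus and library, normalised to transcript length and library size, and these FPKM values were used as deposited. Read depth was estimated from the spacing of low FPKM values, and the number of reads behind each value limits its precision. Groups were taken from the labels. Loci averaging 1 FPKM or more in either genotype were tested on log2(FPKM + 0.5) with limma 3.58.1 in R 4.3.3, with intensity trend and all 9 libraries sharing 1 estimate of the spread (6 residual degrees of freedom), and p-values were adjusted by Benjamini-Hochberg over all tested loci. Fold changes on this scale understate changes of low genes. A call is an adjusted p below 0.05. Locus names, lengths and sequences came from RefSeq TAIR10.1, which matched 32835 of 33602 loci. In simulated data of 19035 genes for *pif4-2* against Col-0, 175 of 200 genes changed by 1 log2 unit and 196 of 200 changed by 2 were recovered. There were 10 and 9 false calls. Each simulated locus had the same spread in all genotypes, unlike the data, and smaller changes were not simulated.

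The members and the 72 gene lists were chosen with earlier results of these data known. Genes named are taken from the 12 largest rises and 12 largest falls of at least 2-fold whose log2(FPKM + 0.5) averaged 1 or more and whose groups did not overlap, up to 4 rising and 4 falling genes per list that were called with groups that did not overlap, the 2 highest genes of lists with no call, *PIF4*, *IAA19*, *IAA29* and *YUC8*, which were also measured by RT-qPCR, and genes named as chosen after their values were seen, among them *BBX11*, *IBH1*, *ATPMEPCRD*, *MLS* and those of the chromosome 4 run. Alternatives were another pseudocount (0.1 or 1), filters, scalings, samples, a replicate block and leaving out each library. Labels give biological replicates but not how they were raised, so p-values measure the spread between these samples. With 3 libraries a side, exact permutation of the labels of 1 gene cannot give a p below 0.1. The test results of single tissue marker genes include an item that is not reported here.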

Additional observations from a re-analysis of the deposited data

How the results depend on the processing

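Against 928 calls in the reported fit, 991 were made with only the 6 Col-0 and *pif4-2* libraries, 799 without intensity trend, 881 with median-of-ratios scaling, 647 of 28422 loci with no filter on low values, and 473 to 833 when 1 library was left out. The 216 calls of at least 2-fold became 544 at a fold threshold of 1.5 and ranged from 184 to 235 when 1 library was left out. *PIF4* kept its call under all 16 alternatives. Under these alternatives no called value of a named gene changed sign. Of 243 named genes 199 were called, and 110 were called in every fit that left out 1 library. Without the chromosome 4 run, an alternative chosen after seeing the data, 901 calls and 213 of at least 2-fold remained. Same-numbered Col-0 and *pif4-2* libraries deviated together only weakly (correlations across genes of 0.0715, 0.0584 and 0.022). Whether libraries of the same number were raised or handled together is not stated and was not tested. With the replicate number as a block, 1329 loci were called, 237 by at least 2-fold, and every Col-0 library correlated best with its own number. Low FPKM values rest on few reads, so changes near 1 FPKM are the least certain.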
